A study of Mus musculus with 16 samples.

Results

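The DNA replication genes followed here are 39 mouse genes that act in origin licensing, in the replicative helicase, in the polymerases and their accessory factors, and in the supply of nucleotides. They were listed by name, with earlier results of these data known, and each had 1 row of its own among the 23235 rows of the deposited table. All 39 were detected in all 16 libraries, between 0.609 FPKM (Pold1 in DC replicate 2) and 292 FPKM (Pcna in Mc replicate 2). FPKM is an RNA level, the sequenced fragments of a gene divided by its transcript length and by the size of the library, so levels of different genes can be set beside each other. The filter on low values kept 14171 rows that reached 1 FPKM in 2 or more libraries, and all 39 genes were among them. The question was which steps of DNA replication had lower RNA levels in the DC fraction and which did not.

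The RNA came from mouse embryonic skin at embryonic day 14.5, sorted by flow cytometry into 8 cell fractions with 2 libraries each. The labels name the fractions DCSch, DC, Pc, Epi, Mc, Sch, Fb and Neg without spelling them out. From general knowledge of the study they are read as dermal condensate with Schwann cells, dermal condensate, placode, epidermis, melanocyte, Schwann cell, fibroblast and the negative fraction. The dermal condensate is the cluster of fibroblast-derived cells that gathers under the epithelial placode when a hair follicle begins to form. No label names a mouse strain, an allele, a transgene or a treatment, and the sources used here do not give the sort markers. The labels' protocols set a lower limit of 8.8 for the RNA integrity number and give 6 ng of RNA as the input to cDNA amplification. Nothing says that the replicates came from separate embryos or litters, so the p-values speak of the spread between these samples, which may be technical.

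Before S phase, the origin recognition complex, Cdc6 and Cdt1 load the ring-shaped Mcm2 to Mcm7 helicase onto DNA, and geminin blocks a second loading. Cdc45 and the GINS complex then turn the helicase on, primase and DNA polymerase alpha lay down primers, and polymerases delta and epsilon extend them with the sliding clamp PCNA, which the RFC complex loads. Replication protein A (RPA) covers single-stranded DNA, Fen1 and Lig1 finish the lagging strand, ribonucleotide reductase and thymidylate synthase supply deoxynucleotides, and many of these genes are transcribed under E2F factors when a cell leaves G1. Cells that leave the cell cycle are known to lower many of these genes, and mouse dermal condensate cells are known to be largely out of the cycle.

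The fraction labels were checked against marker genes. All 5 dermal condensate markers (Sox2, Sox18, Foxd1, Prdm1, Bmp4) were highest in DC, where they summed to 2371 and 1175 FPKM, against 38.2 and 31.8 FPKM in Fb. The 5 fibroblast markers (Dpt, Lum, Col1a1, Col3a1, Lox) were highest in Fb, and summed to 1540 and 1282 FPKM in DC, against 5914 and 4974 FPKM in Fb. Placode markers were near 0 in DC, with 3 of 4 at 0 in both libraries and a sum of at most 0.0888 FPKM. The 5 Schwann cell markers summed to 35.2 and 87.2 FPKM in DC, 5.86 and 11.9 FPKM in Fb, and 1553 and 1805 FPKM in Sch. Erythroid RNA was high only in Neg, at 32118 and 35046 FPKM, against 36.2 to 208 FPKM in the other libraries. FPKM totals ran from 439201 to 606437 per library, and 11273 to 12137 genes reached 1 FPKM. The file holds no counts and gives no depth.

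The 39 genes together held a smaller share of the RNA in DC than in any other fraction. They made up 0.0898% and 0.102% of the FPKM total in the 2 DC libraries, against 0.280% and 0.289% in Fb. In Pc, Epi, Mc, Sch and Neg the share lay between 0.259% (Epi replicate 1) and 0.349% (Mc replicate 2), and in DCSch it was 0.226% and 0.218%. The DC mean was the lowest of the 8 fraction means for 39 of 39 genes, a share not counted over all genes. Both DC libraries lay below both Fb libraries for 37 of 39 genes, against 25.2% of all genes tested, the exceptions being Pold2 and Rpa3. Both DC libraries lay below all 14 other libraries for 35 of 39, against 6.65% of all genes tested, the exceptions being Pold2, Gins3, Rpa3 and E2f1.

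The DC fraction was compared with Fb first, because the condensate forms from fibroblasts. Differences are DC minus Fb on log2(FPKM + 1), tested with limma over all 16 libraries, and calls needed both an adjusted p under 0.05 and a difference of 1 or more in size. Under these limits 29 of the 39 genes were lower in DC and none was higher, where 9.2% of all genes tested were called lower and 6.13% higher. By adjusted p alone 33 were lower, where 12.2% of all genes were. With the replicate number as a block in the fit, all but Rpa3 (limma adjusted p = 0.0522) were lower by adjusted p alone. That share was not counted over all genes. The median difference of the 39 was -1.75, beside a median of 0.00 over all genes tested. On the FPKM scale the DC mean was between 13.95% (Cdc6) and 72.2% (Mcm7) of the Fb mean, with a median of 28.9%. All 39 genes were lower in DC within both replicate numbers, and 30 of them by at least 1 log2 unit in both. These shares were not counted over all genes. In a bulk fraction, fewer cells in S phase and less of these RNAs per cell cannot be told apart. Other marker lists moved with this comparison: immediate early and stress genes, 6 in all, summed to 96.6 and 51.3 FPKM in DC against 259 and 124.7 FPKM in Fb, the 5 melanocyte markers to 7.77 and 34.4 FPKM in DC against 5.24 and 5.69 FPKM in Fb, the 5 keratinocyte markers to 31.2 and 26.2 FPKM in DC against 63.4 and 39.3 FPKM in Fb, and the Schwann cell sums given above were higher in DC. Their part in the differences was not tested.

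**Figure D1:**
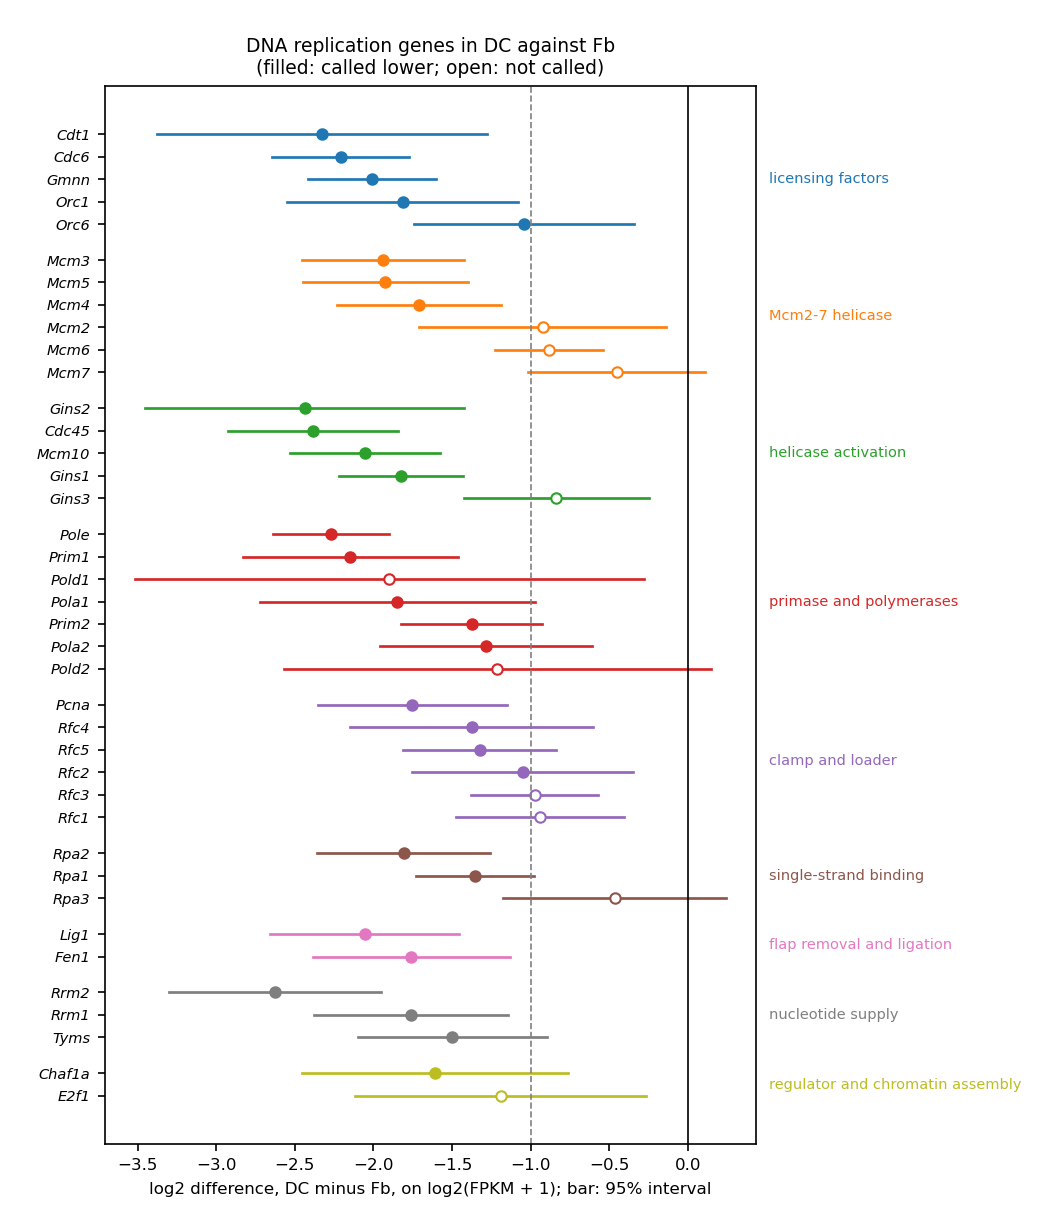
Log2 difference of each of the 39 genes, DC minus Fb, grouped by replication step (points, with 95% intervals from limma as bars; filled points were called lower, open points were not called; the dashed line marks a difference of -1). All 39 points lie below 0, from -2.63 (Rrm2) to -0.45 (Mcm7), and the 10 open points are spread over 6 of the 9 steps.

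Licensing factors were lower as a group, with 5 of 5 called and a median difference of -2.01. Cdt1, which brings the helicase to the origin, measured 3.52 and 1.58 FPKM in DC, against 20.9 and 12.4 FPKM in Fb. Its difference was -2.33 (SE 0.48, limma adjusted p = 0.00408), and the groups did not overlap. Geminin (Gmnn), which inhibits Cdt1, and Cdc6 differed by -2.01 and -2.21. Orc1, the subunit of the origin recognition complex whose level varies with the cycle, differed by -1.81. Orc6, another subunit, differed least, with 10.8 and 14.4 FPKM in DC against 21.3 and 33.6 FPKM in Fb. Its difference was -1.04 (SE 0.32, limma adjusted p = 0.0372). The call was lost without Fb replicate 2 (-0.73), without DC replicate 1 (-0.85) and without DC replicate 2 (-1.23). It was kept with the replicate number as a block (limma adjusted p = 3.04e-05). The other 4 subunits, Orc2, Orc3, Orc4 and Orc5, were not called, with differences between -0.17 (Orc2) and 0.03 (Orc4). Orc2 measured 6.81 and 11.3 FPKM in DC, against 8.204 and 12.19 FPKM in Fb.

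The Mcm2 to Mcm7 genes, whose products form the helicase ring together, were called lower in 3 of 6 cases. Their differences ran from -1.94 to -0.45 with a median of -1.32. Mcm3 had the largest difference, with 14.3 and 10.8 FPKM in DC against 57.0 and 44.8 FPKM in Fb (-1.94, SE 0.24, limma adjusted p = 0.000102). Mcm5 and Mcm4 differed by -1.93 and -1.71. Mcm7 had the smallest difference, with 28.7 and 21.0 FPKM in DC against 39.9 and 29.0 FPKM in Fb (-0.45, SE 0.26, limma adjusted p = 0.277). The highest DC value of Mcm7 was just under the lowest Fb value, and the 95% interval of its difference ran from -1.01 to 0.11. Mcm6 measured 39.8 and 41.0 FPKM in DC, against 71.6 and 79.1 FPKM in Fb. Its difference of -0.88 (SE 0.16, limma adjusted p = 0.00149) passed the p threshold but not the minimum difference of 1. Mcm2 measured 18.9 and 10.6 FPKM in DC, against 35.4 and 21.9 FPKM in Fb, a difference of -0.93 (SE 0.36, limma adjusted p = 0.0964). For Mcm2 and Mcm6 too, both DC libraries lay below both Fb libraries. With the replicate number as a block, Mcm7 (limma adjusted p = 0.0107) and Mcm2 (limma adjusted p = 0.000214) passed the p threshold. Neither reached the minimum difference.

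The makeup of the Mcm2 to Mcm7 RNA was also read within each library, where scaling between libraries plays no part. These ratios were chosen after the values were seen and carry no test. Mcm6 and Mcm7 together made up 57.1% and 59.2% of the FPKM of the 6 genes in DC, against 40.7% and 43.0% in Fb. Over the 14 libraries outside DC this share ran from 40.7% to 48.8%, so both DC libraries stood above all of them. Mcm6 was 6.72 and 7.73 times the level of Mcm5 in DC, against 2.52 and 3.89 times in Fb, and at most 4.47 times in any library outside DC. Mcm7 was 4.85 and 3.97 times the level of Mcm5 in DC, against 1.40 and 1.42 times in Fb, and at most 2.27 times outside DC. Mcm7 hosts the microRNA genes Mir106b, Mir25 and Mir93. The file lists them at 0 in all 16 libraries, so their rows do not separate DC from any other fraction.

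**Figure D2:**
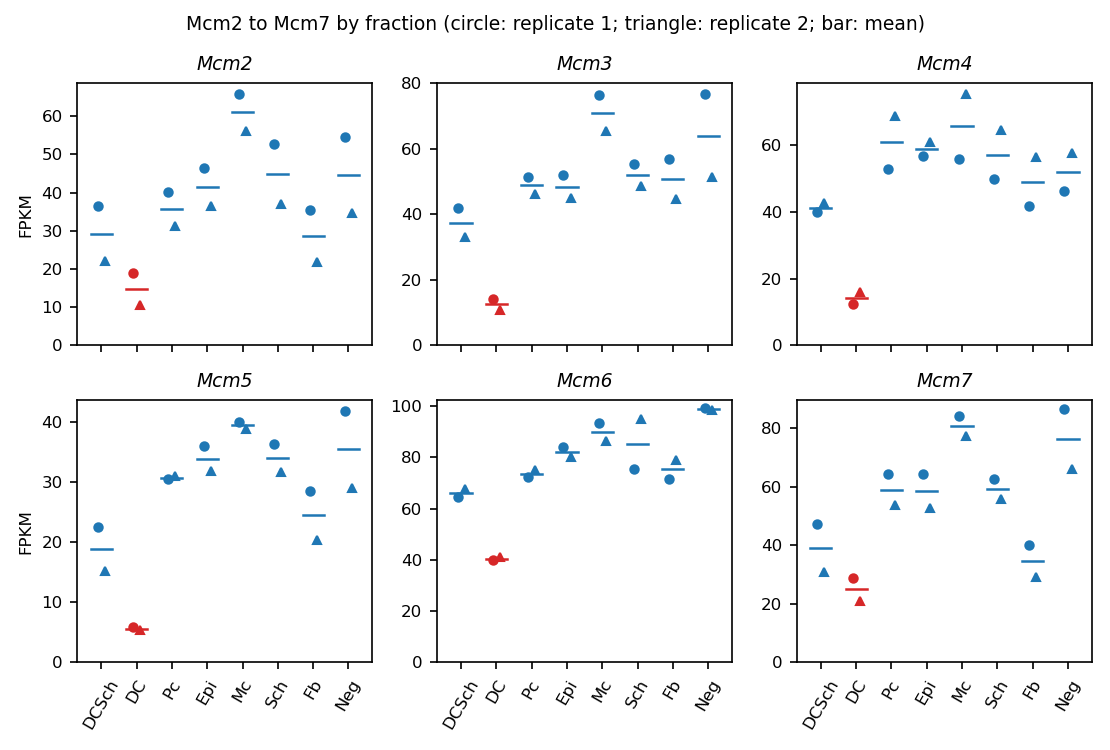
FPKM of Mcm2 to Mcm7 in each library by fraction (circles, replicate 1; triangles, replicate 2; bars, means of 2 libraries; DC in red; each axis starts at 0). DC is lowest in all 6 panels, and stands nearest to Fb for Mcm7, at 28.7 and 21.0 FPKM in DC against 39.9 and 29.0 FPKM in Fb.

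Shown are the promoters of Mcm3 and Mcm5, which had the largest differences of the 6 ring genes in DC against Fb. Those of Mcm6 and Mcm7, which were not called, are shown too. All 4 held E2F sites. Mcm2, also not called, had a window with no such site and is not shown, and Mcm4 had no promoter among those searched. Sequences are from RefSeq on GRCm38.p6, run 5′ to 3′ on the gene's own strand, and span 250 bases before to 50 bases after a transcription start. Capitals mark E2F sites, searched as the 8-letter words TTTCCCGC, TTTCGCGC, TTTGCCGC and TTTGGCGC on both strands. Mcm3 lies at chr1:20820263-20820562 (minus strand), Mcm5 at chr8:75109259-75109558 (plus strand), Mcm6 at chr1:128359656-128359955 (minus strand) and the Mcm7 window at chr5:138171834-138172133 (minus strand).
Mcm3: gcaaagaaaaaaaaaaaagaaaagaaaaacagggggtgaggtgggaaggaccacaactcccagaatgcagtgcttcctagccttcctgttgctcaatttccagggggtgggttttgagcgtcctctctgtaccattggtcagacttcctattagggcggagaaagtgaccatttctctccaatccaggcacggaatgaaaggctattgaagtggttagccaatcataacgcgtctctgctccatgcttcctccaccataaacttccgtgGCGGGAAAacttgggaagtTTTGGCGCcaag
Mcm5: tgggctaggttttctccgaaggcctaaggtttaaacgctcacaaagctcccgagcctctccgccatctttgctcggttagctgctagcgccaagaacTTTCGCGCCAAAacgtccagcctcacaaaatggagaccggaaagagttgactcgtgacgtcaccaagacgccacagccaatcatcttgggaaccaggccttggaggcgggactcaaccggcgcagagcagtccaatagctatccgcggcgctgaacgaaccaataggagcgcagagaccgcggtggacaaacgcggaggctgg
Mcm6: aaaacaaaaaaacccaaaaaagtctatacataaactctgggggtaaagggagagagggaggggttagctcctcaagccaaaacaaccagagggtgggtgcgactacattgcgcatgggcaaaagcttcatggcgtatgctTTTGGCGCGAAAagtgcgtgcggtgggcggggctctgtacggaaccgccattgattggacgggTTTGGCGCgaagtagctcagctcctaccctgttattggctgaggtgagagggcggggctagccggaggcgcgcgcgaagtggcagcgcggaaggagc
Mcm7: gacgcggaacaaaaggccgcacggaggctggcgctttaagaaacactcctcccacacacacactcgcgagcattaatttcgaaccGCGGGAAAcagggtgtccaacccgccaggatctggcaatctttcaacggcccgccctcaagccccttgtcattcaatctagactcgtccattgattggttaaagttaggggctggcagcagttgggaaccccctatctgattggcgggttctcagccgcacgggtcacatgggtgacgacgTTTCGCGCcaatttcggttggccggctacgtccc
All 4 windows held such sites. Mcm3 had 2, starting 19 and 38 bases after the transcription start. Mcm5 had 2 that overlap, 153 and 149 bases before it. Mcm6 had an overlapping pair 110 and 106 bases before it and another site 47 bases before it. Mcm7 had 1 site 165 bases before the start and 1 site 16 bases after it, the second of which overlaps a CCAAT box, and a second RefSeq start of Mcm7 had a window with no site. So among these 4 genes the words were present both with the larger and with the smaller difference, while Mcm2 had none.

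Of the 39 genes, 32 had a promoter in the RefSeq table. An E2F word was found in 12 of the 32 (37.5%), against 2.605% of all 27025 genes with a promoter. A gene was counted if any of its windows held the word. By window, the word was found in 12 of 37 (32.4%). Among genes called lower in DC than Fb it was found in 7 of 22, and among genes not called in 5 of 10. The CCAAT box, the letters CCAAT on either strand, was found in 22 of the 32 genes (68.75%), against 41.1% of all genes. The cell cycle homology region is TTTGAA on either strand, a word known from promoters of mitotic genes. It was found in 5 of the 32 genes (15.6%), against 20.2% of all genes. In the mitosis list described below it was found in 16 of 21 genes (76.2%), where the E2F words were found in 1 of 21. A match is a description of these letters and does not show binding.

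Genes of helicase activation were lower in 4 of 5 cases, with a median of -2.05. Gins2, a GINS subunit, measured 25.6 and 13.8 FPKM in DC, against 154 and 73.7 FPKM in Fb. Its difference was -2.44 (SE 0.46, limma adjusted p = 0.00238), and its locus in the file is drawn wide enough to overlap Gse1, which was higher in DC (31.6 and 19.5 FPKM) than in Fb (11.8 and 4.16 FPKM). Cdc45, the helicase partner, Mcm10, which helps the helicase to start, and Gins1 differed by -2.39, -2.05 and -1.83. Gins3 was the exception, with 3.39 and 4.93 FPKM in DC against 7.25 and 9.09 FPKM in Fb. Its difference of -0.84 (SE 0.27, limma adjusted p = 0.0453) passed the p threshold only, and it was called without DC replicate 2 (-1.06). The fourth GINS subunit, Gins4, was not called, with 28.0 and 28.4 FPKM in DC against 32.6 and 32.9 FPKM in Fb (-0.21, SE 0.16, limma adjusted p = 0.446). The subunits of this 4-member complex thus ranged from -2.44 to -0.21.

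Among primase and polymerase genes 5 of 7 were called lower, with a median of -1.85. Pole, the catalytic subunit of the leading-strand polymerase epsilon, measured 2.41 and 2.73 FPKM in DC, against 16.6 and 15.9 FPKM in Fb. Its difference was -2.27 (SE 0.17, limma adjusted p = 2.68e-06). The primase subunits Prim1 (-2.15) and Prim2 (-1.37) and the polymerase alpha subunits Pola1 (-1.85) and Pola2 (-1.28) were also called lower. Pola1 lost its call without Fb replicate 2 (-1.43) and without DC replicate 1 (-1.36), and Pola2 without Fb replicate 1 (-0.96) and without DC replicate 2 (-1.08). Pold1, the catalytic subunit of the lagging-strand polymerase delta, measured 1.96 and 0.609 FPKM in DC, against 15.3 and 3.07 FPKM in Fb, so that the replicates of each fraction lay far apart. Its difference of -1.90 (SE 0.74, limma adjusted p = 0.0992) was not called, but was called with the replicate number as a block (adjusted p = 0.00636) and without Fb replicate 2 (-2.90). Pold2, the second subunit, measured 13.0 and 4.27 FPKM in DC, against 32.04 and 11.003 FPKM in Fb, and the groups overlapped. Its difference of -1.21 (SE 0.62, limma adjusted p = 0.219) was called only with the block (adjusted p = 0.0176), and its locus overlaps Aebp1, which measured 10.8 and 5.04 FPKM in DC against 62.2 and 27.2 FPKM in Fb.

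Of the clamp and its loader 4 of 6 genes were called lower, with a median of -1.19. Pcna, the clamp, measured 47.4 and 50.2 FPKM in DC, against 150 and 185 FPKM in Fb, a difference of -1.75 (SE 0.27, limma adjusted p = 0.000611). The 5 loader genes had differences between -1.38 and -0.94. Rfc4 (-1.38), Rfc5 (-1.32) and Rfc2 (-1.05) were called. Rfc4 shares its locus with Eif4a2, at 154 and 247 FPKM in DC against 145 and 222 FPKM in Fb, and its call was lost without Fb replicate 2 (-1.01) and without DC replicate 1 (-0.81). The call of Rfc2 was lost without Fb replicate 1 (-0.82) and without DC replicate 2 (-0.68). Rfc3 measured 17.0 and 19.8 FPKM in DC, against 37.2 and 36.9 FPKM in Fb (-0.98, SE 0.19, limma adjusted p = 0.00240), and Rfc1, the large subunit, measured 18.8 and 24.3 FPKM in DC, against 34.0 and 51.6 FPKM in Fb (-0.94, SE 0.24, limma adjusted p = 0.0166). Both passed the p threshold and fell short of the minimum difference, Rfc3 being called without DC replicate 2 (-1.08) and Rfc1 without Fb replicate 1 (-1.23) or without DC replicate 2 (-1.11).

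Of the 3 subunits of the single-strand binding protein RPA 2 were called lower. Rpa2 measured 13.7 and 7.04 FPKM in DC, against 41.5 and 33.2 FPKM in Fb (-1.81, SE 0.25, limma adjusted p = 0.000257), and Rpa1, the large subunit, differed by -1.35. Rpa3, the small subunit, measured 36.7 and 50.02 FPKM in DC, against 45.4 and 78.1 FPKM in Fb, and the groups overlapped. Its difference of -0.47 (SE 0.32, limma adjusted p = 0.397) was not called.

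At the finishing and supply steps all 5 genes were called lower. Fen1, the flap nuclease, measured 2.21 and 2.48 FPKM in DC, against 12.6 and 8.38 FPKM in Fb (-1.76, SE 0.29, limma adjusted p = 0.000819). Lig1, the ligase that seals lagging-strand nicks, measured 15.3 and 11.8 FPKM in DC, against 69.0 and 50.4 FPKM in Fb (-2.06, SE 0.27, limma adjusted p = 0.000194). Neither gene's groups overlapped. Rrm2, the small subunit of ribonucleotide reductase, had the largest difference of all 39 genes, with 4.53 and 9.19 FPKM in DC against 36.8 and 55.8 FPKM in Fb (-2.63, SE 0.31, limma adjusted p = 7.52e-05). Its large-subunit partner Rrm1 differed by -1.76, and Rrm1 was 2.61 and 1.73 times the level of Rrm2 in DC, against 1.12 and 1.04 times in Fb and at most 1.12 times in any library outside DC, a ratio also chosen after the values were seen. Tyms, thymidylate synthase, measured 11.3 and 22.4 FPKM in DC, against 42.0 and 52.5 FPKM in Fb (-1.50, SE 0.27, limma adjusted p = 0.00185).

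Of the remaining pair, Chaf1a, a subunit of the chromatin assembly factor that follows the fork, was lower and E2f1 was not called. Chaf1a measured 8.41 and 6.85 FPKM in DC, against 34.5 and 18.4 FPKM in Fb (-1.61, SE 0.39, limma adjusted p = 0.0106), and its call was lost without Fb replicate 1 (-1.17) and without DC replicate 2 (-1.48). E2f1, a transcription factor that turns on S phase genes, measured 8.61 and 4.65 FPKM in DC, against 22.6 and 11.01 FPKM in Fb. Its difference of -1.19 (SE 0.42, limma adjusted p = 0.0681) was called with the replicate block (adjusted p = 0.000473) and without Fb replicate 2 (-1.68). Both DC libraries of E2f1 lay below both Fb libraries.

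The same DC libraries were then set against the other 5 fractions. These comparisons share the DC libraries and are not independent of each other. Against Pc 32 genes were lower, against Epi 35, against Mc 33, against Sch 32 and against Neg 34, and none was higher in any of them. The shares of all genes tested called lower were 13.3% against Pc, 14.1% against Epi, 10.9% against Mc, 10.3% against Sch and 13.9% against Neg, and those called higher 14.3%, 14.5%, 11.5%, 8.97% and 10.2% in the same order. With all libraries rescaled to the same total, all genes split into 1615 lower and 2552 higher calls against Epi, in place of 2001 and 2061, and into 1562 lower and 1936 higher against Neg, in place of 1966 and 1448. The median differences of the 39 genes were -1.89 against Pc, -1.81 against Epi, -2.03 against Mc, -1.77 against Sch and -1.89 against Neg, where all genes had medians within 0.03 of 0. Rrm2 had the largest difference against 4 of the 5 (-2.98 against Pc, -3.35 against Mc, -3.04 against Sch, -3.43 against Neg), and Cdt1 against Epi (-3.10). Cdc45 was among the 4 largest in each, between -2.53 (Epi) and -2.96 (Mc).

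Over the 6 comparisons 28 of the 39 genes were called lower in all 6 and 3 in none, and these shares were not counted over all genes. The 3 were Rfc1, Gins3 and Rpa3, and this rests on the minimum difference of 1. By adjusted p alone Rfc1 was lower against Pc, Fb and Neg, Gins3 against Sch, Fb and Neg, and Rpa3 against Epi and Neg. With a pseudocount of 0.1 Gins3 was called against Sch (-1.05) and Neg (-1.13) and Rpa3 against Epi (-1.01), and without DC replicate 2 each of the 3 was called in at least 2 comparisons. Their DC means were 62.4%, 55.3% and 56.6% of the mean of the 6 fractions Pc, Epi, Mc, Sch, Fb and Neg, where the 39 genes ran from 10.7% (Mcm10) to 62.4% with a median of 24.985%. Rfc1 differed by between -0.94 (Fb) and -0.40 (Mc), Gins3 by between -0.98 (Neg) and -0.23 (Epi), and Rpa3 by between -0.99 (Epi) and -0.47 (Fb). All these differences were negative, and a missing call does not show that the genes were equal between fractions. Mcm7, not called against Fb, was called against the other 5 fractions, with differences between -1.67 (Mc) and -1.21 (Epi), and its own level in Fb, 39.9 and 29.0 FPKM, lay below that in Pc, Epi, Mc, Sch and Neg, at 52.6 to 86.3 FPKM. Mcm2 was likewise called against all but Fb, and Mcm6 against all but Fb and Pc. Of the others with a missing call, Orc6 was called in 4 of 6, Pold2 in 3, and Rfc3, Pold1 and E2f1 in 2 each. With the replicate block Pold1 and Pold2 were called in all 6 and E2f1 in 5, and the 3 genes called in none were again Rfc1, Gins3 and Rpa3.

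**Figure D3:**
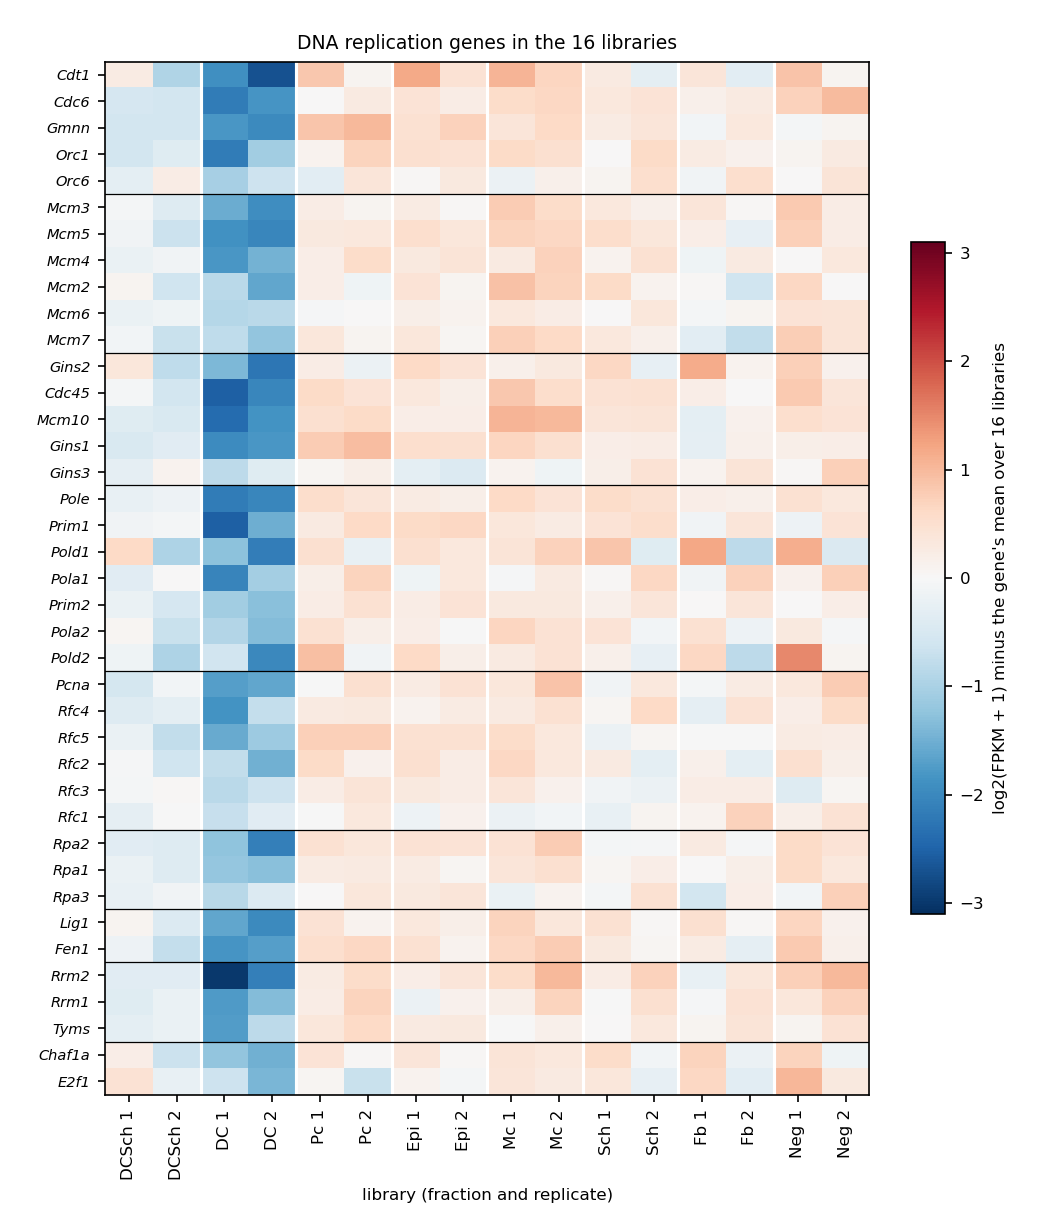
Log2(FPKM + 1) of each of the 39 genes in each of the 16 libraries, minus the gene's mean over the libraries (rows, genes in the order of the replication steps, which black lines separate; columns, libraries; blue, below the mean; red, above it). The 2 DC columns are blue in every row, the DCSch columns are paler, and Rfc1, Gins3 and Rpa3 are among the palest rows in DC.

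Outside DC and DCSch the genes varied little between fractions. Over the means of the 6 other fractions the highest was 1.11 times (Chaf1a) to 2.34 times (Mcm7) the lowest, with a median of 1.47 times. The highest fraction mean was in Mc for 18 genes, in Neg for 10, in Pc for 7, in Fb for 2 and in Epi and Sch for 1 each. In Mc against Sch no gene was called by limma, where 4.53% of all genes were called higher and 7.31% lower. At an unadjusted p under 0.05 there were 3, where 25.6% of all genes passed in either direction. All 3 were higher in Mc: Mcm10, with 21.3 and 20.4 FPKM in Mc against 12.9 and 13.1 FPKM in Sch, Rpa2 and Rfc5. In Pc against Epi no gene was called either, where 0.155% of all genes were called higher and 1.37% lower. None had an unadjusted p under 0.05, where 8.76% of all genes did. The differences in Pc against Epi ran from -0.48 (Gins2) to 0.48 (Rrm1), with a median of 0.02. Geminin had its highest mean in Pc, with 61.3 and 67.6 FPKM in Pc against 46.7 and 55.02 FPKM in Epi, and was not called between them.

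The DCSch fraction lay between DC and Sch. Its mean was between the DC and the Sch mean for 37 of 39 genes, a share not counted over all genes. The exceptions were Rfc3 and E2f1, where it was above both. Against DC, 18 genes were higher in DCSch and none lower, where 4.41% of all genes were called higher and 1.79% lower, and the median difference was 1.27. Rrm2 differed most, with 33.6 and 33.6 FPKM in DCSch against 4.53 and 9.19 FPKM in DC (2.20, SE 0.31, limma adjusted p = 0.000884). Cdc45, Cdt1 and Prim1 followed, with differences of 1.96, 1.96 and 1.93. By step, 3 of 3 supply genes and 2 of 2 finishing genes were higher, 3 of 5 licensing factors, 3 of 6 Mcm2 to Mcm7 genes, 3 of 5 helicase activation genes, 2 of 7 primase and polymerase genes, 1 of 6 clamp and loader genes and 1 of 3 RPA genes, and neither E2f1 nor Chaf1a was called. A fit on the 4 libraries compared called 3 genes in place of 18. That fit called 244 of 12137 genes tested higher, where the main fit called 625 of 14171. Against Sch, limma called no gene in DCSch, where 3.56% of all genes were called lower and 5.29% higher. The median difference was -0.47, beside a median of -0.03 over all genes tested. Of the 39 differences 37 were below 0, and the share of all genes below 0 was not counted. At an unadjusted p under 0.05 there were 14 genes, all 14 lower in DCSch, where 21.3% of all genes passed in either direction. By adjusted p alone 6 were lower, where 5.35% of all genes were: Cdc6 (-0.92), Gmnn (-0.88), Mcm5 (-0.84), Mcm10 (-0.82), Pole (-0.72) and Gins1 (-0.63). The DCSch comparisons share libraries with those above. Dermal condensate markers summed to 522 and 512 FPKM in DCSch and Schwann cell markers to 530 and 611 FPKM, and how the makeup of this fraction bears on the replication genes was not tested.

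Other genes of the cell cycle were read in the same way in DC against Fb, from lists made by name. Of all genes tested, 9.2% were called lower and 6.13% higher in this comparison. Of 38 further replication genes 22 were lower, 1 was higher and 15 were not called, with a median of -1.30. The largest differences were those of Tk1, thymidine kinase (-3.01), Clspn, a checkpoint adaptor at the fork (-2.75), Asf1b, a histone chaperone (-2.59), and Wdhd1, a replisome scaffold (-2.53). Rrm2b, an alternative small subunit of ribonucleotide reductase, was the 1 higher, with 4.58 and 7.91 FPKM in DC against 1.54 and 2.00 FPKM in Fb (1.35, SE 0.31, limma adjusted p = 0.00870). It thus went the opposite way to Rrm2. Among those not called, the most abundant were Tipin, of the fork protection complex (-1.23), Rnaseh2c, of ribonuclease H2 (-0.25), and Gins4.

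Of 18 genes of G1/S control 8 were lower and 2 higher. For this list and those that follow, the shares of all genes tested were 9.2% lower and 6.13% higher. Ccna2, cyclin A2 (-3.29), the repressive E2F factors E2f7 (-2.79) and E2f8 (-2.42), and Fbxo5, an inhibitor of the anaphase-promoting complex (-2.48), had the largest differences among the lower genes. Rb1, the retinoblastoma protein that restrains E2F, was higher, with 27.0 and 44.5 FPKM in DC against 3.53 and 6.71 FPKM in Fb (2.60, SE 0.44, limma adjusted p = 0.00106). Tfdp2, a dimer partner of E2F, was also higher (1.46). Tfdp1 (-0.73), Cdk2 (-0.67) and E2f6 (-0.15) were not called. Mitosis genes were lower in 25 of 25 cases, with a median of -2.997, and led by Mki67 (-3.44), Birc5 (-3.42), Aurkb (-3.36) and Cdk1 (-3.31). Their differences and those of the 39 replication genes were not tested against each other. Of the CDK inhibitors and D cyclins, 11 of 12 tested, Cdkn1a (5.20) and Cdkn1c (1.90) were higher, Cdkn2c (-2.91) and Cdk6 (-1.14) were lower, and Cdk4 (0.42), Ccnd1 (0.63) and Ccnd2 (0.01) were among the 7 not called.

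**Figure D4:**
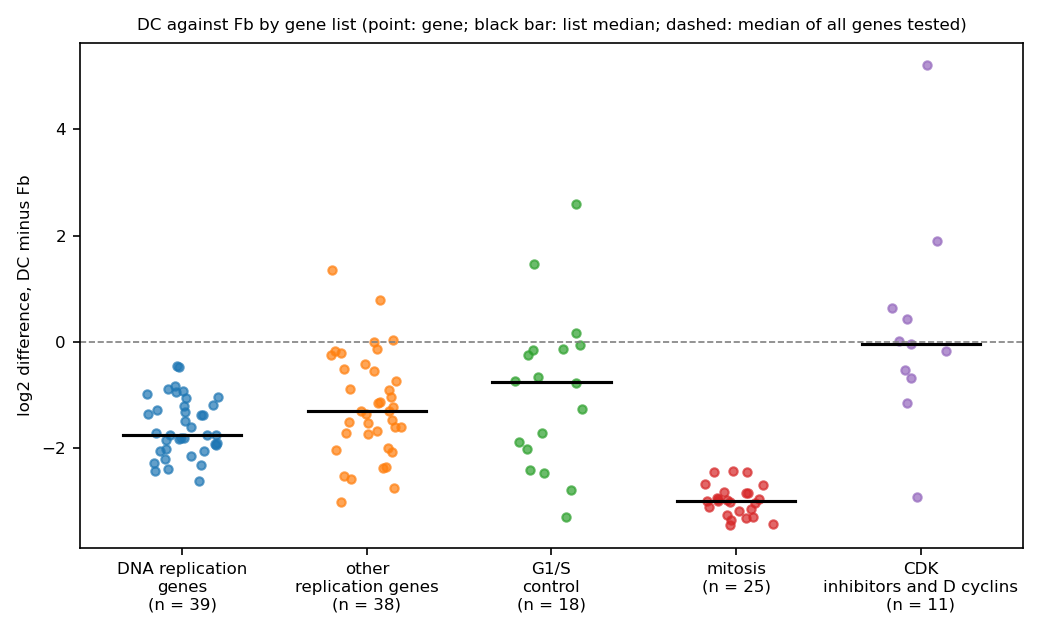
Log2 difference, DC minus Fb, of each gene in 5 lists (points; black bars, list medians; dashed line, median of all genes tested; n, genes tested in the list). The mitosis list lies lowest with a median of -2.997, the 39 replication genes have a median of -1.75, and the CDK inhibitors and D cyclins spread around a median of -0.04.

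The replicates of a fraction differed in a way that the genes had in common. Of the 39 genes, 9 were higher in replicate 1 than in replicate 2 in all 8 fractions, and 9 were higher in replicate 2 in all 8. These shares were not counted over all genes. The mean difference between replicates went with the GC content of the gene's longest transcript, at Pearson's r = 0.865 and Spearman's rho = 0.877 across the 39 genes, and at 0.779 and 0.827 across 13302 genes tested with a GC value. Genes are not independent replicates, and these correlations are descriptions. The widest mean gaps toward replicate 1 were those of Pold1 (61.0% GC), Pold2 (58.7%), Cdt1 (57.8%), Gins2 (53.4%) and E2f1 (58.3%). Toward replicate 2 they were those of Pola1 (41.5%), Orc6 (45.4%) and Rpa3 (34.2%). Of these genes Cdt1, Gins2, Pola1 and Orc6 were called in DC against Fb, and the others were not. The difference between DC and Fb went with GC content at r = -0.219 across the 39 genes and 0.0855 across all.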

How the data were processed

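RNA-seq of 8 sorted fractions of mouse embryonic skin (2 libraries each) was read from 1 table of FPKM values deposited by the authors. The submitters' processing notes name TopHat2 2.0.3, Bowtie2, Cufflinks 2.1.1 and the mm10 build, without roles or settings. Whether the deposited FPKM were also scaled between libraries, and whether strand was used, was not found in the sources used here, so values of overlapping genes are uncertain. No counts were analysed here, and depth is unknown. At values under 0.3 FPKM a clear step of single fragments was seen only in replicate 1 of DC, DCSch, Sch and Neg against Fb replicate 1. There 1 fragment in DC was worth 0.889 times 1 fragment in Fb.

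The scale of the tests was log2(FPKM + 1), where the pseudocount makes differences of weakly expressed genes smaller. limma 3.58.1 (R 4.3.3) was run on the 14171 rows that reached 1 FPKM in 2 or more libraries, with 1 mean per fraction over all 16 libraries and trended, robust empirical Bayes variances. Benjamini-Hochberg adjustment ran over all rows in each of 10 comparisons. The fit was tested on simulated data. Members, step groups, marker genes and other gene lists were chosen with earlier results of these data known, and no list was tested as a set.

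Full values are given in DC against Fb for the genes with the largest and the smallest difference of each step and for every gene not called. Of each other list, up to 4 genes called in each direction and 3 not called are named, most by their difference alone. Same-numbered libraries deviated together from their fraction means in 28 of 28 pairs of fractions (r across genes 0.148 to 0.656, median 0.491), so the numbers were read, from the data and not from the labels, as pairing the samples. The fit without the replicate number is the main one. Promoters are RefSeq windows of 300 bases on GRCm38.p6, matched by symbol. GC content is that of the longest GENCODE transcript on GRCm38, found for 93.9% of genes tested. Alternatives were another pseudocount (0.1), no filter on low values, 2 rescalings, the replicate block, a fit on the 4 libraries compared, no minimum difference and leaving out each library.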

Additional observations from a re-analysis of the deposited data

How the results depend on the processing

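None of the 39 differences in DC against Fb changed sign under any alternative run, and no called difference of the 39 genes did in any of the 10 comparisons. Each comparison had 390 values under alternatives, called genes included. Of these, 1 changed sign in DC against Epi, 10 in DCSch against Sch, 26 in Mc against Sch and 36 in Pc against Epi. All of these were of genes not called. Over all genes tested, the larger share of calls in DC against Neg moved from lower to higher with libraries rescaled to the same total. In DC against Fb 29 genes were called, 32 with the replicate block, which added Pold1, Pold2 and E2f1, and 26 to 28 with 1 library left out. A fit on the 4 libraries compared, where the spread comes from those libraries alone, called 19, and in DCSch against DC 3 in place of 18. All genes called lower in DC against Fb fell with it from 1304 of 14171 to 764 of 12273. Those called higher in DCSch against DC fell from 625 of 14171 to 244 of 12137. Of the 29 genes, 23 were called in all 4 fits without a library and 19 under every alternative. With 1 library left out the counts ran from 27 to 30 against Sch, from 29 to 31 against Pc, from 27 to 31 against Epi and from 31 to 34 against Neg, were 31 in each fit against Mc, and ran from 13 to 20 in DCSch against DC. These fits pool the spread, so the lone library is assumed to vary like the other fractions. They also hold no replicate block. With the block over all 16 libraries, none of the 29 calls in DC against Fb was lost. In DCSch against Sch, where none was called, 6 were called with no minimum difference, 1 with a pseudocount of 0.1, 1 with libraries rescaled to the same total and 0 to 1 with 1 library left out (Mcm5, without DCSch replicate 1); the cause was not tested. In Pc against Epi and Mc against Sch none was called under any alternative. The replicate block gave 33 against Pc, 36 against Epi, 34 against Mc, 35 against Sch, 35 against Neg, 24 in DCSch against DC and 0 in the other comparisons. Of all 14171 genes tested it called 1412 lower against Fb, 1968 against Pc, 2104 against Epi and 1698 against Mc. It called 1575 lower against Sch and 2089 against Neg, and 736 higher in DCSch against DC. Rescaling to the same total moved the median of all genes to 0.20 (DC against Epi), 0.19 (Neg), 0.12 (Pc) and -0.11 (Sch), and to -0.11 in DCSch against Sch and -0.15 in Mc against Sch. With 2 libraries a fraction and unknown depth, genes not called are not shown to be equal.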
